A study of Rattus norvegicus with 5 samples.

Results

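The genes described here encode the subunits of 5 kinds of transmitter receptor: the GABA-A receptors (with the rho subunits), the GABA-B receptor, the glycine receptors, the nicotinic acetylcholine receptors and the 5-HT3 serotonin receptors. They were taken by symbol from the gene table and not by level, though earlier results of these data were known. Of its 33014 gene symbols, 44 matched. Of these, 19 belong to the GABA-A family, 2 to the GABA-B family, 5 to the glycine family, 16 to the nicotinic family and 2 to the 5-HT3 family. Levels come from 5 poly-A RNA-seq libraries of dorsal root ganglion (DRG) cells in culture, prepared from wild-type Sprague Dawley rats at postnatal day 10. Ganglia of a litter of 10 pups were dissociated and plated at 5000 cells per well, received PBS (a vehicle) on day 1 and were harvested on day 8, with 3 wells pooled per library. All 5 libraries carry the same labels and form 1 group, so the comparisons below are between genes within libraries. Nothing in the labels says that the libraries came from separate litters or preparations, so a p-value reflects the variation among these 5 samples alone, and that variation may be technical. The study behind them is an optical screening platform for compounds against chronic pain.

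The GABA-A, glycine, nicotinic and 5-HT3 receptors are pentameric channels opened by their transmitter, and most are built from several kinds of subunit. The GABA-B receptor is instead a pair of seven-helix proteins that acts through G proteins: the Gabbr1 product binds GABA, and the Gabbr2 product couples to the G protein and carries its partner to the cell surface. On the central endings of sensory afferents, which lie outside the ganglia, GABA-A receptors underlie presynaptic inhibition and GABA-B receptors lower transmitter release. DRG cultures also hold Schwann cells, satellite glia, fibroblasts and macrophages. A bulk library therefore does not say which cells carry a transcript, and fewer cells of a type cannot be told apart from less RNA per cell.

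Sequences just upstream of the start sites are shown for both GABA-B genes, which are the highest member and its obligate partner, and for Gabra6, which had no read. They are RefSeq promoter sequences of build GRCr8, from 250 bases before to 50 bases after the start, written on the strand of the gene with each CG dinucleotide in capitals. The Gabbr1 window is chr20:1499187-1499486 (minus strand), the Gabbr2 window is chr5:66083646-66083945 (minus strand) and the Gabra6 window is chr10:27327185-27327484 (minus strand).
Gabbr1: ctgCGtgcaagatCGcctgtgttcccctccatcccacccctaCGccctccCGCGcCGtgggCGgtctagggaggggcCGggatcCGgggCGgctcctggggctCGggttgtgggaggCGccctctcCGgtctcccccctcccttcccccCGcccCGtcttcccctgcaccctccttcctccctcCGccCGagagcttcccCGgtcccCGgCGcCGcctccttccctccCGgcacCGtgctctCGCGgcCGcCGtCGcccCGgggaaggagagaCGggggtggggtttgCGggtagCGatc
Gabbr2: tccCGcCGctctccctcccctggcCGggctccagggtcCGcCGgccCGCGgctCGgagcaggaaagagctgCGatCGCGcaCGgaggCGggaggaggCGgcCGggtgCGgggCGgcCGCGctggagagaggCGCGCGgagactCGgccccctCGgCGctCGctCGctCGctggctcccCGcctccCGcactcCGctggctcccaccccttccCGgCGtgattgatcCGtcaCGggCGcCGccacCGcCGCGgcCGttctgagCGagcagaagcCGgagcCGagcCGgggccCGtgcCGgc
Gabra6: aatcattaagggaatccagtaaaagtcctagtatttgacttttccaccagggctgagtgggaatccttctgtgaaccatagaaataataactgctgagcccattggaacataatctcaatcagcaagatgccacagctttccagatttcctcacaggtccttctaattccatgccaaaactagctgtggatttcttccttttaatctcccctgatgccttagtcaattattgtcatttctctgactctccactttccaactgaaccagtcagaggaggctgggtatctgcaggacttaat
The motif searched was CG, which reads the same on both strands and cannot overlap itself. Gabbr1 held 32 CG dinucleotides in this window, Gabbr2 held 47 and Gabra6 held 0. A promoter sequence was matched for 34 members, of which 12 were detected by the rule given below. Detected members had a median of 20 CG per window (range 2 to 47), members that were not detected had a median of 9.5 (n = 22, range 0 to 42), and all 33469 promoters of the table had a median of 7. At least 20 CG stood in 6 of the 12 detected members, 7 of the 22 others and 24.2% of all promoters. The ranges overlapped almost fully: Gabrd, with 1 read in all, had 40 CG, and Chrne, at 3.82 TPM, had 2.

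Levels are given in TPM (transcript abundance scaled to a fixed total per library), which divides reads by transcript length and so allows genes to be compared, as mean ± SD over the 5 libraries unless stated otherwise. A gene was called detected at 1 TPM or more in every library. By that rule 16 of the 44 members were detected, against 41.3% of all genes of the table. A further 25 were above 0 but not detected, and 3 were at 0 in every library. The median member was at 0.551 TPM, and the median gene of the table at 0.297 TPM. The members together held 311 ± 10.7 TPM, of which the GABA-B family held 203 ± 7.24, the GABA-A family 48.1 ± 2.56, the nicotinic family 47.0 ± 2.54, the glycine family 11.2 ± 1.46 and the 5-HT3 family 1.61 ± 0.0985. All 8 pan-neuronal markers were detected, with a summed level of 6593 to 6995 TPM, which fits the labelled tissue as far as neurons go. Markers of Schwann cells (8 of 8), satellite glia (5 of 5), fibroblasts (6 of 6) and macrophages (6 of 6) were detected too. Of 7 markers of central neurons and glia, 2 were detected, Olig1 at 6.79 ± 0.986 TPM and Aqp4 at 4.68 ± 0.740 TPM. They made up most of that list's sum of 9.95 to 14.1 TPM.

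**Figure D1:**
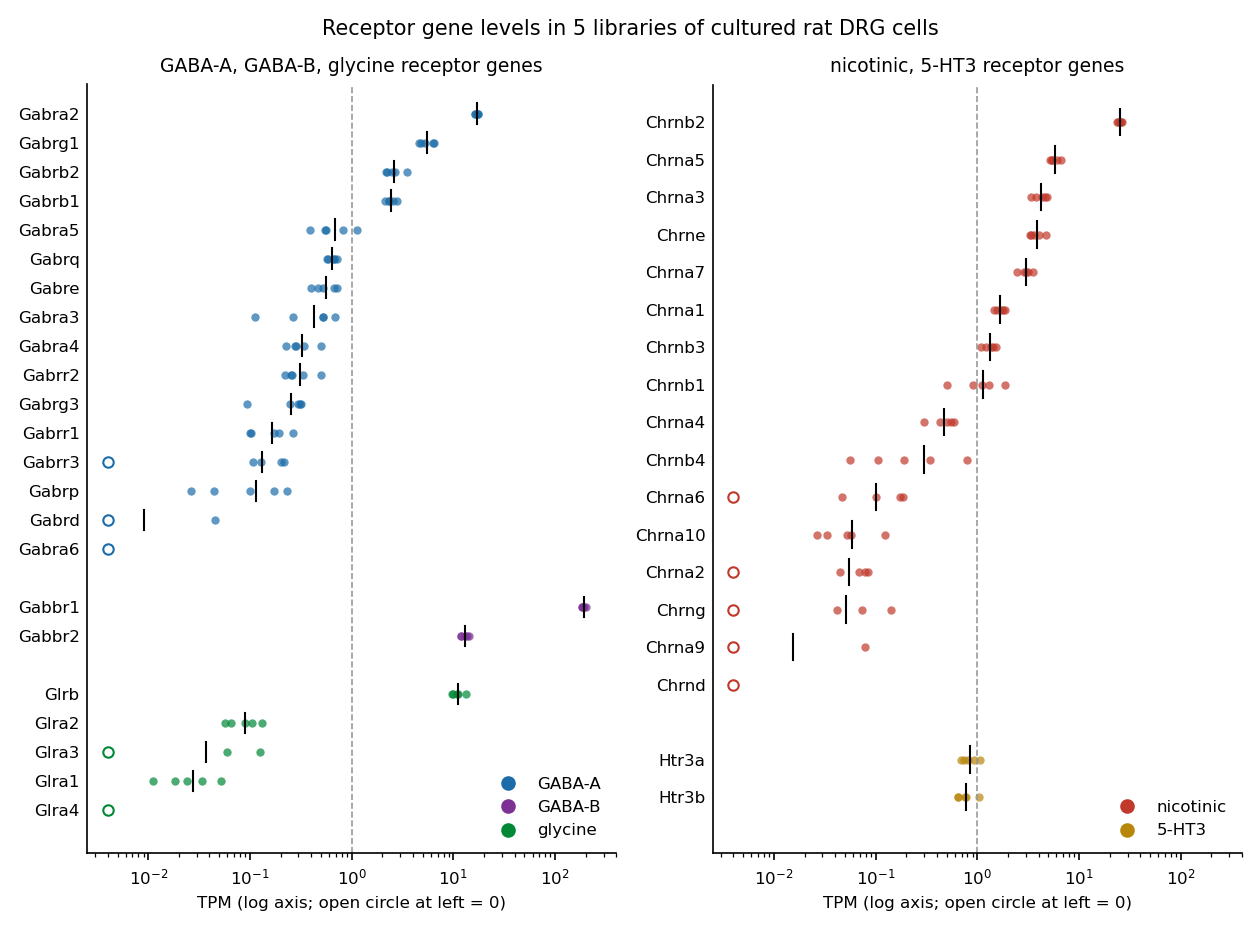
Level in TPM (log axis) of the receptor genes described here, by family and from high to low mean, in the 5 libraries. Filled points are libraries, black ticks are means, open circles at the left mark libraries at 0, and the dashed line is the detection level of 1 TPM; Gabbr1 stands at 185 to 200.04 TPM, apart from the other genes shown, whose highest value is 26.4 TPM.

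Gabbr1 was the highest member by far, and its obligate partner Gabbr2 was much lower. Gabbr2 stood at 12.02, 14.2, 13.2, 11.9 and 13.6 TPM in replicates 1 to 5, with a mean of 13.0 ± 0.998. Gabbr1 stood at 187, 200.04, 185, 186 and 194 TPM, with a mean of 190.3 ± 6.402, and ranked 846 among all genes. The 2 genes did not come near each other in any library. The Gabbr2 level was 0.0680 ± 0.00365 of the Gabbr1 level, or -3.87 ± 0.08 (SD) as log2((TPM + 0.1)/(TPM + 0.1)), with the lower value in 5 of 5 libraries (limma, adjusted p = 4.34e-09 over 18987 genes). Of all genes tested, 95.2% were called lower than Gabbr1, so the call by itself does not set Gabbr2 apart.

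Part of the Gabbr1 level came from a transcript that is annotated as non-coding. Its 4399-base NM transcript (curated, coding) held 64.7 ± 1.19% of the gene TPM. A 4610-base XM model (predicted, coding) held 16.8 ± 1.70%, and a 2284-base XR model (predicted, non-coding) held 16.8 ± 1.67%. These shares were steady, with the XR model between 15.7% and 19.7% in every library. With the coding transcripts alone, Gabbr1 was at 158 ± 4.74 TPM and the log2 ratio of Gabbr2 to Gabbr1 was -3.60. The Gabbr2 level rested on a single 5457-base transcript for 98.0 ± 1.37%.

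The auxiliary subunits that bind the GABA-B receptor and set how fast it desensitizes were detected in 3 of the 3 listed genes found in the table. Kctd12 led at 61.7 ± 6.89 TPM, followed by Kctd16 at 10.4 ± 1.17 TPM and Kctd8 at 8.13 ± 0.454 TPM. Replicate 1 was lowest for Kctd12 and Kctd16, at 50.1 and 8.51 TPM.

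In the GABA-A family, the detected genes described here were Gabra2, Gabrg1, Gabrb2 and Gabrb1. The other family members described were all below 1 TPM on average.

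Among the alpha genes, which with a beta subunit form the GABA site, Gabra2 was the detected one. It stood at 16.3, 17.6, 17.4, 16.4 and 17.2 TPM (17.0 ± 0.596). The level rests on transcripts without a RefSeq name, since the 2 named transcripts held 0.106 TPM. Gabra5, an extrasynaptic subunit in hippocampus, averaged 0.688 ± 0.291 TPM and passed 1 TPM in 1 library. The ranges of Gabra5, Gabra3 and Gabra4 all lay far under that of Gabra2. Gabra3 averaged 0.422 ± 0.229 TPM and Gabra4 0.324 ± 0.104 TPM. Gabra6, known from cerebellar granule cells, had no read, which allows up to 0.0178 TPM (3 reads over the 5 libraries; such floors, and the exact Poisson intervals below, cover counting error only).

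The beta subunit is needed for assembly of most GABA-A receptors. Gabrb2 stood at 2.47, 3.53, 2.64, 2.24 and 2.19 TPM (2.62 ± 0.541), and Gabrb1 at 2.32, 2.81, 2.31, 2.56 and 2.11 TPM (2.42 ± 0.269). Replicate 2 was highest for both, and the 2 ranges overlapped, with Gabrb2 the higher in 4 of 5 libraries.

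A gamma subunit joins alpha and beta subunits in most synaptic GABA-A receptors, and the Gabrg1 product gives receptors of lower benzodiazepine affinity. Gabrg1 stood at 4.86, 6.44, 6.34, 4.55 and 5.25 TPM (5.49 ± 0.862). Replicates 2 and 3 were the high ones, and every library was above 1 TPM. The 1 named Gabrg1 transcript held 35.1 ± 8.91% of the gene. Gabrg3 averaged 0.253 ± 0.0930 TPM, and its range did not overlap that of Gabrg1.

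The rarer GABA-A genes were all below the detection level. The rho genes, whose subunits form the retinal GABA-C receptors, averaged 0.312 TPM (Gabrr2), 0.167 TPM (Gabrr1) and 0.132 TPM (Gabrr3). Gabrq (theta) averaged 0.646 ± 0.0607 TPM, Gabre (epsilon) 0.555 ± 0.138 TPM and Gabrp (pi) 0.114 ± 0.0857 TPM. Gabrd, the delta subunit of extrasynaptic receptors that give tonic currents in brain, had 1 read in the 5 libraries, or 0.00914 TPM with an interval of 0.000232 to 0.0509. Gabrr2 and Gabrp overlap non-coding RNA genes that stood at 1.03 and 2.42 TPM, so their low values are uncertain where strand was not used in counting.

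The genes differed in how firmly their transcripts were resolved. Gabrb2 was divided mainly between XM models of 7565 and 7399 bases. Each of them took between 0 and 100% of the gene, depending on the library. In replicate 2 they took 20.3% and 52.0%, and other transcripts took the rest. The sum over transcripts, which is the gene level, ran from 2.19 to 3.53 TPM and was highest in replicate 2. Chrne, a nicotinic gene described below, was steadier, with a 1657-base XM model at 65.5 ± 3.94% and a 2747-base XM model at 24.2 ± 3.49%. Chrnb3 was divided among 3 transcripts, a 2606-base NM transcript (56.2 ± 20.9%) and XM models of 3222 bases (29.0 ± 19.1%) and 3161 bases (14.8 ± 22.3%). Chrna1, Chrna3, Chrna7 and Chrnb2 each rested on 1 named transcript, which held the whole gene level. The 1 named transcript held 59.6 ± 8.63% of Chrna5 and 46.4 ± 5.32% of Gabrb1.

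**Figure D2:**
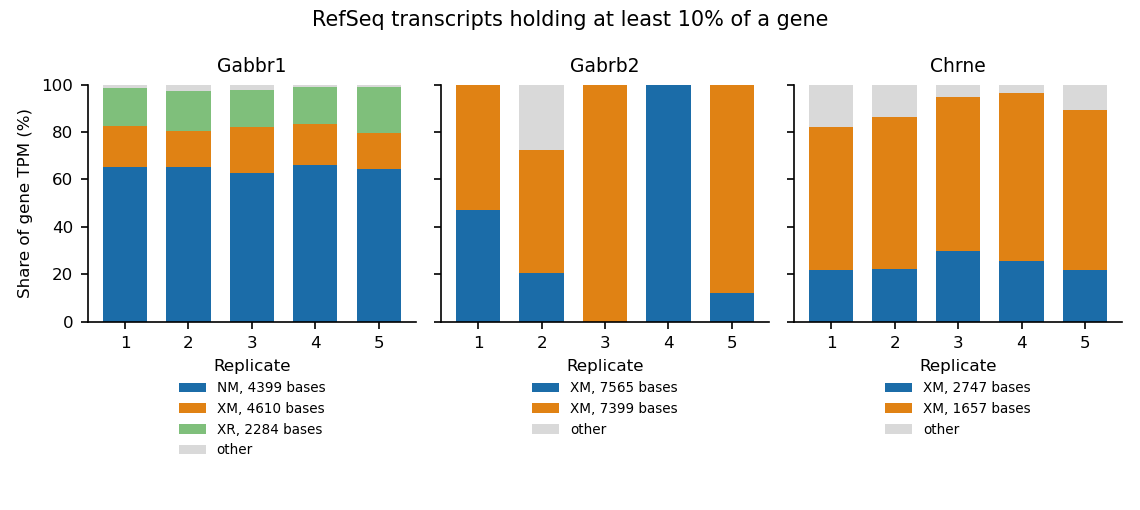
Share of the gene TPM (percent, from 0 to 100) taken by each RefSeq transcript that holds at least 10% of its gene on average, for Gabbr1, Gabrb2 and Chrne in replicates 1 to 5. Gabbr1 keeps nearly the same division in every library, while the 2 long Gabrb2 models trade places between replicates 3 and 4.

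Several of these genes neighbour each other on the chromosomes of GRCr8, with fewer than 10 genes between them. In the group Gabrb1-Gabra4-Gabra2-Gabrg1, 3 of the 4 genes were detected, at 2.42, 17.0 and 5.49 TPM, and Gabra4 was not. Genes in the group Gabre-Gabra3-Gabrq were all below 1 TPM. Gabrr2 and Gabrr1, also neighbours, were both below it.

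The 3 genes that make GABA or load it into vesicles were below 1 TPM on average, while 4 of the 6 that take it up or break it down were detected. Gad1 and Gad2, the enzymes that make GABA, averaged 0.1998 ± 0.0379 and 0.183 ± 0.119 TPM, and Slc32a1, the vesicular GABA transporter, averaged 0.0882 ± 0.0530 TPM. Abat, which breaks GABA down, led the list of 9 genes at 16.4 ± 2.03 TPM. Slc6a11, a GABA uptake transporter of glia, followed at 9.64 ± 0.774 TPM and Aldh5a1, the next enzyme of breakdown, at 3.38 ± 0.139 TPM. In all, 4 of the 9 genes were detected. The genes for anchoring and trafficking of GABA-A and glycine receptors were detected in 13 of 13, led by Gabarap at 772 ± 18.3 TPM, Gabarapl1 at 385 ± 8.22 TPM and Clptm1 at 174 ± 3.99 TPM, with Plcl1 lowest at 1.36 ± 0.131 TPM. Most of these have other cellular roles too, such as autophagy for Gabarap. Of the genes tied to benzodiazepine-site ligands and neurosteroids, 5 of 5 were detected, led by Dbi, the diazepam-binding inhibitor, at 1165 ± 36.6 TPM, then Tspo at 189 ± 5.61 TPM and Srd5a3 at 52.7 ± 2.32 TPM, with Akr1c14 lowest at 6.32 ± 1.57 TPM.

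In the glycine family the beta gene was detected without any alpha gene. The alpha subunits bind glycine and can form channels by themselves, while the beta subunit fastens the receptor to gephyrin and needs an alpha partner. Glrb stood at 13.5, 9.89, 10.9, 10.98 and 9.77 TPM (11.003 ± 1.48), highest in replicate 1. The 4 alpha genes together summed to 0.141, 0.197, 0.141, 0.0836 and 0.208 TPM (0.154 ± 0.0501). Glrb was thus 80.2 ± 34.9 times the alpha sum, from 47.1 to 131 in single libraries. Its level rests on transcripts without a RefSeq name, since the 1 named transcript held 0.472 TPM.

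Few reads stood behind the alpha genes. Glra2, the alpha subunit of embryonic glycine receptors, averaged 0.0892 TPM on 18 reads, with an interval of 0.0529 to 0.141. Glra3, which in mouse spinal cord is tied to inflammatory pain, averaged 0.0372 TPM on 3 reads, with an interval of 0.00767 to 0.109. Glra1, the alpha subunit of adult spinal cord, averaged 0.0279 TPM on 13 reads, with an interval of 0.0148 to 0.0476. Glra4 had no read, which allows up to 0.0351 TPM. All 4 had a mean under 0.1 TPM, the level set for the test, so none was tested. Without that level, 3 of 3 were lower than Glrb, by log2 ratios of -6.44 (Glra1), -5.88 (Glra2) and -6.41 (Glra3), each in 5 of 5 libraries (limma, largest adjusted p = 3.96e-08), where 60.3% of 24484 genes were called lower. The 0.1 TPM added to every gene exceeds all 3 means, and Glra3 was at 0 in 3 of 5 libraries. The sizes of these ratios, and their spread, thus come largely from the added value and from Glrb. Gphn, which encodes gephyrin, averaged 15.7 ± 0.949 TPM. Of the 3 glycine transporters, Slc6a9, the glial one, was at 33.2 ± 3.91 TPM, Slc6a5, the neuronal one, at 0.101 ± 0.0392 TPM and Slc6a14 at 0.00391 ± 0.00875 TPM.

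Chrnb2 led the nicotinic family and was the second highest of all 44 members. Its product pairs with several alpha subunits, and with the Chrna4 product it forms the main nicotinic receptor of brain. Chrnb2 stood at 24.2, 26.4, 25.7, 23.7 and 25.1 TPM (25.01 ± 1.11), or 93.9 ± 1.39% of the neuronal beta TPM. The other beta genes were far lower. Chrnb3, an accessory subunit, stood at 1.32 ± 0.173 TPM. Chrnb4, which with the Chrna3 product forms the main receptor of autonomic ganglia, was not detected, at 0.106, 0.341, 0.0565, 0.189 and 0.794 TPM on 26 reads.

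Of the neuronal alpha genes, 3 of 8 were detected. Chrna5, an accessory subunit that joins receptors of other alpha and beta subunits, stood at 5.45, 6.60, 6.06, 5.19 and 5.46 TPM (5.75 ± 0.571), or 42.1 ± 1.63% of the neuronal alpha TPM. Chrna3 stood at 3.79, 4.67, 4.31, 3.36 and 4.84 TPM (4.196 ± 0.616), or 30.7 ± 3.30%. Chrna7, which forms channels of 1 kind of subunit with high calcium flux, stood at 3.50, 2.91, 3.12, 3.02 and 2.46 TPM (3.00 ± 0.374), or 22.1 ± 3.32%. By gene level, Chrna5 lay above Chrna3 and Chrna7 in all libraries, and the ranges of Chrna3 and Chrna7 overlapped. The 1 named Chrna5 transcript alone stood at 2.65, 4.71, 3.63, 3.30 and 2.98 TPM. That is above Chrna3 in replicate 2 only, and below Chrna7 in replicate 1 only. The place of Chrna5 over Chrna3 thus rests on transcripts without a RefSeq name.

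The other neuronal alpha genes were low. Chrna4 averaged 0.475 ± 0.117 TPM, and it overlaps Col20a1, which was at 6.28 TPM. Chrna6, which in mouse DRG has been tied to mechanical pain, averaged 0.101 TPM on 11 reads, with an interval of 0.0506 to 0.181. Chrna10 and Chrna9, which together form the receptor of cochlear hair cells, averaged 0.0588 TPM on 23 reads and 0.0156 TPM on 2 reads. Chrna2 averaged 0.0551 TPM on 7 reads. In the neighbouring genes Chrna5-Chrna3-Chrnb4, the first pair was detected and Chrnb4 was not, with Chrna3 at 6.10 to 76.3 times Chrnb4 in single libraries.

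All 10 tested nicotinic genes were lower than Chrnb2, each in 5 of 5 libraries, where 66.6% of all genes were called lower. Since Chrnb2 led the family in these same libraries, the calls restate that order, and the ratios give the size of the gap. The log2 ratio to Chrnb2 was -2.11 ± 0.08 for Chrna5 (limma, adjusted p = 9.48e-08), -2.56 ± 0.16 for Chrna3 (adjusted p = 3.02e-07) and -3.03 ± 0.21 for Chrna7 (adjusted p = 3.40e-07). It was -5.47 ± 0.27 for Chrna4 (limma, adjusted p = 1.02e-07), -6.27 ± 0.98 for Chrnb4 (adjusted p = 1.13e-05) and -7.07 ± 0.62 for Chrna6 (adjusted p = 8.48e-07). The widest spread was that of Chrnb4, whose mean of 0.297 TPM had an interval of 0.194 to 0.436, and which averaged 0.173 TPM without replicate 5. Several of these ratios moved by over 1.5 times with the processing and kept their direction and call: Chrna5 was at -2.85 with named transcripts alone, Chrna3 at -3.19, Chrna7 at -3.65 and Chrna4 at -4.65 in CPM (reads not divided by length), and Chrna4 at -4.14, Chrnb4 at -4.35 and Chrna6 at -4.56 with 1 TPM added in place of 0.1. With 0.01 TPM added, Chrnb4 was at -6.88 and Chrna6 at -8.40.

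**Figure D3:**
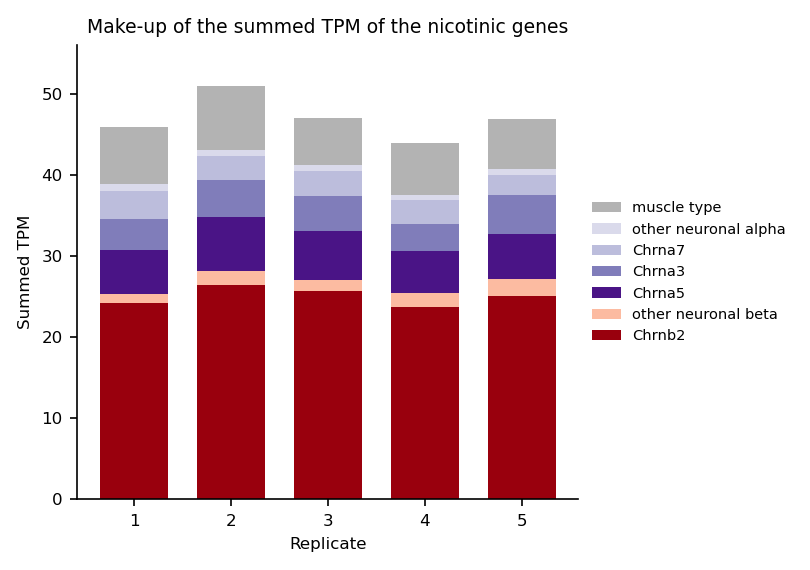
Stacked TPM (linear axis from 0) of the nicotinic genes in replicates 1 to 5, with the leading genes drawn singly and the rest of each class summed. Chrnb2, at 23.7 to 26.4 TPM, is the largest segment of every bar, with Chrna5, Chrna3 and Chrna7 next above the other beta genes.

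**Figure D4:**
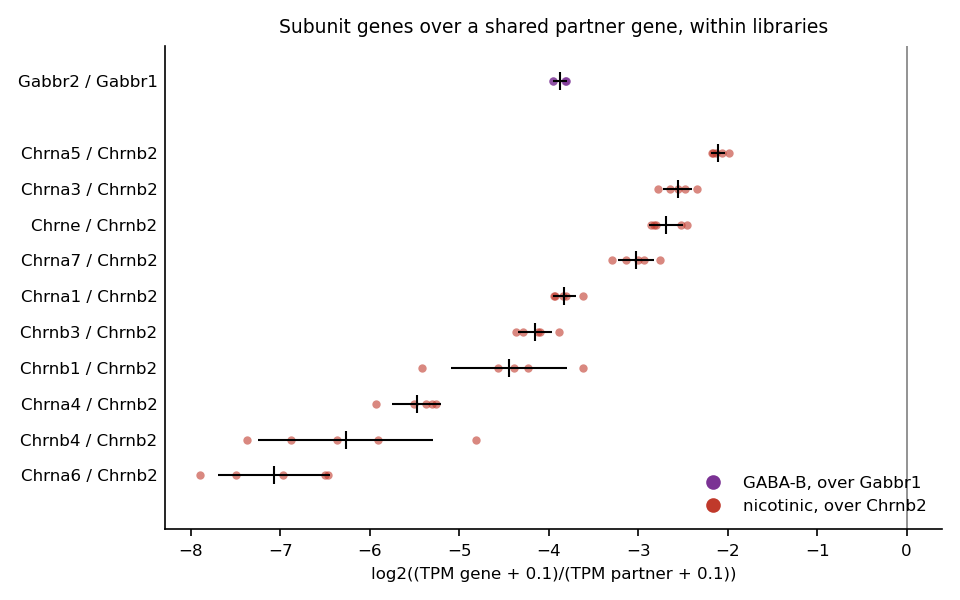
Log2 ratio of each tested subunit gene to the gene its family was set against (Gabbr1 or Chrnb2, called the partner), within libraries. The name does not mean that every product shown assembles with that of Chrnb2. Points are the 5 libraries, ticks with bars are mean ± SD, and the vertical line marks equal levels; every point lies to the left of it, and the mean ratios reach -7.07 for Chrna6.

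Among the 5 genes of the muscle receptor, 2 passed the detection level. Chrne, the epsilon subunit of the adult endplate, stood at 3.32, 4.74, 3.61, 4.05 and 3.37 TPM (3.82 ± 0.590). Chrna1, the alpha subunit of the muscle receptor, stood at 1.88, 1.80, 1.70, 1.45 and 1.56 TPM (1.68 ± 0.175). Both were above 1 TPM throughout, with Chrne the higher in every library. Chrnb1 was not detected, at 1.88, 1.31, 0.505, 0.905 and 1.10 TPM, and it overlaps Zbtb4, which was at 27.9 TPM. Chrng, the fetal subunit that the epsilon subunit replaces, averaged 0.0516 TPM on 6 reads. Chrnd, the delta subunit, had no read, which allows up to 0.0280 TPM.

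Of 9 skeletal muscle markers, 2 were detected, Tnnt3 at 3.21 ± 0.867 TPM and Acta1 at 2.45 ± 0.853 TPM. The list summed to 6.25 to 7.44 TPM, and the defining regulators Myog and Myod1 were at 0.0431 and 0.0171 TPM, with reads missing in 2 and 3 libraries. Genes that gather the receptor at the muscle endplate were low as well, with Rapsn at 1.15 ± 0.240 TPM and Musk at 0.156 ± 0.0536 TPM. The part of muscle cells in the Chrne and Chrna1 levels was not tested.

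Of the genes for acetylcholine supply and breakdown, Chat and Slc18a3 were close to 0 and the other 3 were detected. Chat, which makes acetylcholine, averaged 0.00804 ± 0.0110 TPM and the vesicular transporter Slc18a3 averaged 0.0644 ± 0.0440 TPM. Ache, the enzyme that breaks acetylcholine down, stood at 157 ± 9.39 TPM, Slc5a7, which takes up choline for acetylcholine synthesis, at 8.397 ± 0.538 TPM and Bche at 6.51 ± 0.762 TPM. Of the 11 chaperones and modulators of nicotinic and 5-HT3 receptors, 7 were detected. Ly6e led at 59.8 ± 2.90 TPM, then Lynx1, a membrane-anchored modulator of nicotinic receptors, at 13.4 ± 0.194 TPM and Ric3, an assembly chaperone, at 12.6 ± 0.717 TPM. Lypd6b was lowest at 0.0637 ± 0.0295 TPM.

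Neither 5-HT3 gene reached the detection level. The Htr3a product forms channels by itself, and the Htr3b product needs it as a partner. Htr3a stood at 0.802, 0.921, 1.06, 0.742 and 0.689 TPM (0.843 ± 0.149) on 110 reads. Htr3b stood at 0.781, 0.644, 0.640, 0.748 and 1.04 TPM (0.770 ± 0.162) on 62 reads. The 2 ranges overlapped, with Htr3a the higher in 3 of 5 libraries, and each passed 1 TPM in 1 library. At 0.5 TPM in every library, both would be detected. Of 8 genes for serotonin synthesis, transport and breakdown, 3 were detected. Maoa, which breaks serotonin down, led at 47.4 ± 2.46 TPM, then the vesicular transporter Slc18a2 at 9.56 ± 0.793 TPM and Maob at 2.86 ± 0.406 TPM. The uptake transporter Slc6a4 was lowest at 0.0370 ± 0.0276 TPM.

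Ordered by mean level, the 14 detected members described here were Gabbr1, Chrnb2, Gabra2, Gabbr2, Glrb, Chrna5, Gabrg1, Chrna3, Chrne, Chrna7, Gabrb2, Gabrb1, Chrna1 and Chrnb3. Of the 13 neighbouring pairs in that order, 5 had ranges that did not overlap: Gabbr1 and Chrnb2, Chrnb2 and Gabra2, Gabra2 and Gabbr2, Glrb and Chrna5, and Gabrb1 and Chrna1. The ranges of the other 8 pairs overlapped. Within libraries, Gabrg1 was above Chrna3 in 5 of 5 and Chrna3 above Chrne in 3 of 5. In each remaining pair the first gene was the higher in 4 of 5. Where the libraries were divided, the order of a pair is thus not settled by them. For Gabrg1 and Chrna3 the order was the same in each library, though their ranges overlapped. It also rests on Gabrg1 transcripts without a RefSeq name, since the named one averaged 1.97 TPM.

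These members did not all peak in the same library, but 9 of the 14 were highest in replicate 2 and none was lowest there. The share of all genes that were highest in replicate 2 was not counted. The count is thus not a result about these members as such. The summed level of all members was 307, 329, 308, 300.1 and 312 TPM in replicates 1 to 5. The pan-neuronal markers summed to 6995 TPM in replicate 2 and 6593 to 6724 TPM in the other libraries. Markers of Schwann cells (7772 TPM, against 6746 to 7711) and fibroblasts (1739 TPM, against 1695 to 1714) were highest there too. Macrophage markers (1166 TPM, against 1556 to 1853) and satellite glia markers (8299 TPM, against 8392 to 10893) were lowest there. The part of these cell types in the receptor levels was not tested.

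Spread between libraries was close to counting error for the lower genes and above it for several others. For 9 detected members the reads could be taken from named transcripts, and the coefficient of variation (CV) of TPM was set beside that expected from counting alone. Chrna1 had a CV of 10.4% on 39.8 reads per library, against 15.9% from counting, and Chrnb2 had 4.43%, against 3.72%. Gabbr1 had a CV of 3.36%, against 0.960% from counting, and Gabbr2 had 7.70%, against 3.19%. Gabrb2 had the highest CV of the 9, at 20.7%, against 6.15% from counting. Of the 1183 genes with reads taken in the same way and within 1.5 times those of Gabrb2, 98.1% had a lower CV, and their median was 8.14%. Without replicate 2, where it was 3.53 TPM, Gabrb2 lay between 2.19 and 2.64 TPM. In replicate 2 its 2 long models held 20.3% and 52.0% of the gene level, and other transcripts held the rest. In every other library the long models held all of it. The counting value does not cover how reads were assigned among transcripts. The part of that assignment in the Gabrb2 CV was not tested.

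**Figure D5:**
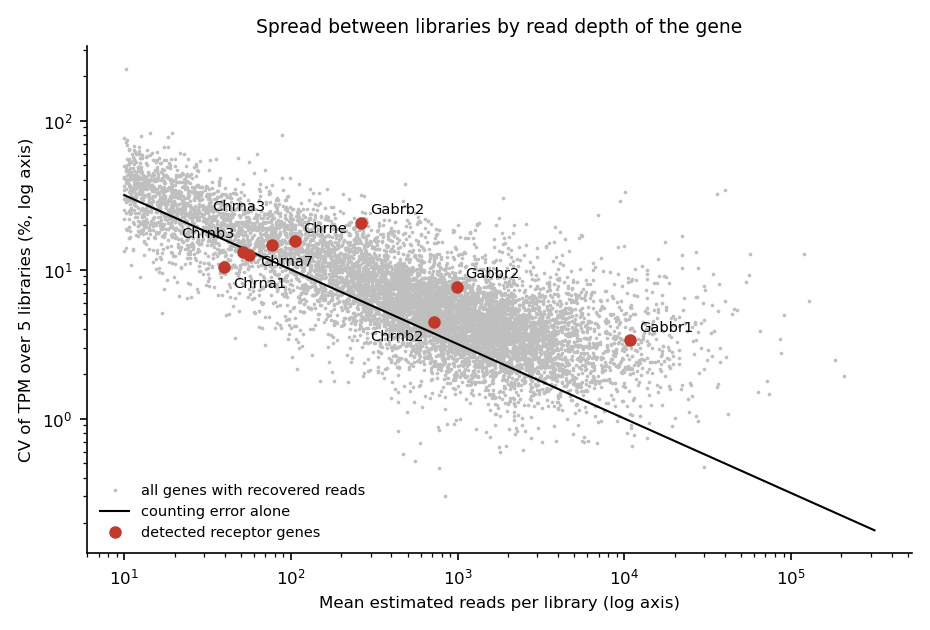
CV of TPM over the 5 libraries (percent, log axis) by the mean number of estimated reads per library (log axis). Grey points are the 9260 genes with at least 10 reads whose reads could be taken from named transcripts, and red points are 9 detected receptor genes. The line is counting error alone; Gabrb2, at 20.7%, has the highest CV of the 9, while Gabbr1, at 3.36%, against 0.960% from counting, lies farthest above the line on this log axis.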

How the data were processed

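Poly-A RNA of cultured rat DRG cells was sequenced in 5 libraries with 21596608 to 27913098 estimated reads. The submitters' processing notes name Salmon 1.5.1 (transcript quantification), cutadapt 2.8, Trim Galore 0.6.6 and the rat build mRatBN7.2. Their order, the use of strand and the handling of multimapping are steps not given in the sources used here. As the main source served a combined table of TPM that the authors deposited for 33014 gene symbols. Per the file headers, the deposited quantification files list 98811 transcripts, each with a TPM and an estimated count, which Salmon models and which need not be whole. A RefSeq table of GRCr8 named 67330 transcripts (68.1%). Reads were used for a gene only where its named transcripts came within 10% of its TPM in every library, which 32 members met. Another 9 members above 0 did not: Chrna5, Chrnb1, Gabra2, Gabrb1, Gabre, Gabrg1, Gabrp, Gabrq and Glrb.

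Within each library, log2((TPM gene + 0.1)/(TPM partner + 0.1)) was taken for every gene with mean TPM of at least 0.1 (18987 genes, 33 members). Here the partner is the gene a family was set against (Gabbr1, Glrb or Chrnb2), whether or not the products assemble. It was tested against 0 with limma 3.58.1 under R 4.3.3 (intercept only, two-sided), and p-values were Benjamini-Hochberg adjusted over all genes, with a threshold of 0.05. The scale understates ratios of low genes, and all ratios to a partner share its noise. The exact sign-flip test over 5 libraries cannot go below p = 0.0625. The code of the fit was checked on simulated independent libraries, which says nothing on how far these 5 libraries are independent. Floors are the TPM of 3 reads over the 5 libraries, and intervals are exact Poisson limits at 95%; without molecular identifiers, reads may be copies of the same molecule.

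Members were every symbol of the 5 families. Some members, and the GABA-A ratio comparison, are not reported here. The text names detected members, partner genes, members without reads, the 3 highest and the lowest gene of each pathway list, and transcripts of at least 10% of a detected member. Other genes (Gad1, Gad2, Gphn, Slc18a3, Rapsn, Musk, the muscle markers and overlapping genes) were named after their values were seen. The members and lists were chosen with earlier results of these data known. No group contrast was possible, and no coordinates are given beyond those of the RefSeq promoters.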

Additional observations from a re-analysis of the deposited data

How the results depend on the processing

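Over all alternatives (pseudocounts of 0.01 and 1 TPM, other filters, named transcripts, CPM, coding transcripts of Gabbr1 alone and each replicate left out), 11 ratios to Gabbr1 or Chrnb2 were recomputed 114 times, and 114 kept their direction and call; the setting for Gabbr1 coding transcripts was added after the data were seen. Part of the 114 could not change direction: the filters left the log2 ratios themselves as they were, and so did named transcripts where these held the whole gene level, as for Chrna3. Gabbr2 over Gabbr1 ranged from -3.90 to -3.46. The sizes of the ratios to Chrnb2 were less steady: over 1.5 times from the values tested, Chrna5 stood at -2.85 with named transcripts, Chrna3, Chrna7 and Chrna4 at -3.19, -3.65 and -4.65 with CPM, Chrnb4 and Chrna6 at -6.88 and -8.40 with 0.01 TPM added, and Chrna4, Chrnb4, Chrna6, Chrnb1 and Chrnb3 at -4.14, -4.35, -4.56, -3.63 and -3.49 with 1 TPM added. No filter brought 3 members lower than Glrb, where the filter had left 0 to test, and the means of all 3 were under the 0.1 TPM added. CPM gave no value for Glrb, whose reads were not recovered. Detected members numbered 20 at 0.5 TPM (adding Chrnb1, Gabrq, Htr3a and Htr3b), 13 at 2 TPM, 17 by mean TPM of at least 1 (adding Chrnb1), 13 by named transcripts (without Gabra2, Gabrb1 and Glrb) and 16 without each replicate.

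No paired analysis was possible because there was 1 group. Depth limits the members below about 0.1 TPM, which rest on few reads, and the number of libraries limits every SD. Strand was not known, so Chrna4, Chrna10, Chrnb1, Gabrp, Gabrr2 and Glra4, which overlap genes at over 25% of their level, are uncertain.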
